A study of Danio rerio with 6 samples.

Results

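Ribosomes are built in the nucleolus, around the genes for ribosomal RNA (rRNA). RNA polymerase I (Pol I) transcribes these genes into one long precursor, small nucleolar ribonucleoproteins (snoRNPs) modify and help cut it, and many assembly factors fold it with ribosomal proteins into the small and the large subunit. Growing oocytes make and store large numbers of ribosomes for the embryo, and ovaries of fish are known for intense rRNA synthesis. The mRNAs of 40 genes of this machinery were examined here out of 32520 genes counted. The genes were taken by name, with earlier results of these data known. They comprised 6 subunits of Pol I, 3 factors that start its transcription, 7 core proteins of snoRNPs, 2 nucleolar organisers, 13 factors of the small subunit and 9 factors of the large subunit.

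The levels were compared between *eif4e1b* mutant and wild-type gonads of juvenile zebrafish, with 3 samples per genotype and 3 gonads pooled in each sample. Mutant fish were homozygous (-/-) for *eif4e1b*, which encodes a germ-cell form of the cap-binding protein eIF4E, and wild-type fish were +/+. The mutants carried frameshift deletions made by genome editing in the third exon, and the labels do not give the allele. Fish of both genotypes carried tg(ziwi:GFP), in which the promoter of the germline gene *ziwi* drives a green fluorescent protein, and gonads with high fluorescence were taken for whole-tissue RNA. The question addressed is how the loss of eIF4E1b changes the RNA content of the gonad. The p-values measure the spread between these pools, and it is not given whether pools shared fish. Levels are given as TMM-CPM, which are counts relative to the library total (CPM) after the totals are scaled by edgeR's TMM factors, always in the order of replicates 1, 2 and 3. In bulk samples of this kind, fewer cells of a type and less RNA per cell cannot be told apart.

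All samples were labelled as ovary from females, but 12 markers of oocytes summed to 39.1 to 347 CPM in mutant samples and 9453 to 12408 CPM in wild-type samples, and all 12 were lower in mutant samples with a median log2 fold change of -6.29. Markers of spermatids and sperm summed to 51.0 to 178 CPM in mutant samples and 24.5 to 50.4 CPM in wild-type samples, and 7 of 9 tested were higher. Markers of testis somatic cells summed to 1959, 1233 and 1639.9 CPM in mutant samples and 617, 251 and 257 CPM in wild-type samples, with wild-type replicate 1 standing apart, and 4 of 5 tested were higher. Those of ovarian somatic cells summed to 71.7 to 119 CPM in mutant samples and 12.5 to 20.9 CPM in wild-type samples. Of 6 tested, 4 were higher and 1 was lower. Of 9 markers of germ cells of either sex, 3 were lower, 2 were higher and 4 did not pass the test. They summed to 3380, 1487 and 3200 CPM in mutant samples and 2466, 1610 and 1717 CPM in wild-type samples. The share to set beside all marker counts here is that of all tested genes, 32% lower and 37.5% higher. For germ cells, 3 of 9 lower was close to this general share. Of 14 markers of S phase, 12 were lower and 2 were higher, with sums of 915 to 1635 CPM in mutant samples against 4696 to 4890.2 CPM in wild-type samples, and 6 of 8 markers of mitosis were lower. All 13 markers of the exocrine pancreas were higher, with sums of 39719.7 to 69077 CPM in mutant samples and 92.4 to 373 CPM in wild-type samples. All 5 markers of skin and scale and 4 of 5 of skeletal muscle were higher. Liver markers summed to 335, 68493 and 9162 CPM in mutant samples and 144, 61.4 and 1735 CPM in wild-type samples, with mutant replicate 2 standing apart. None of these marker genes was at 0 in every mutant sample. *eif4e1b* itself had 6.73, 1.40 and 3.20 CPM in mutant samples and 126, 103 and 119.9 CPM in wild-type samples. Total counts were 5539470 to 8233080 per mutant library and 11771342 to 13362230 per wild-type library. The part of cell composition and of tissue attached to the gonad in the results below was not tested.

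Most mRNAs of the machinery were lower in mutant gonads. Of the 40 genes, 33 fell, 3 rose (*ubtf*, *nop2* and *gnl3*) and 4 did not pass the threshold of an adjusted p of 0.05 (*nop56*, *nop10*, *utp20* and *rrs1*) in the quasi-likelihood test of edgeR, with p adjusted by Benjamini-Hochberg over the 20091 genes tested. Of all tested genes, 69.5% passed this threshold, 32% lower and 37.5% higher. In 36 of the 40 genes every mutant sample was below every wild-type sample in TMM-CPM, against 35.4% of all tested genes. Overlap of gene levels depends on the scaling, and here and below it was judged with TMM factors only. In 3 genes every mutant sample was above, against 39.8% of all tested genes, and in *rrs1* alone the samples overlapped. A drop of at least 1 log2 unit was called for 23 of the 40 genes and for 26.8% of all tested genes. The median log2 fold change was -1.10 over the 40 genes and 0.23 over all tested genes, and the 40 genes ranged from -2.0 (*polr1d*) to 1.32 (*gnl3*). All 40 genes passed the filter on low counts, and the lowest count of any of them in any library was 28, for *utp18*.

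**Figure D1:**
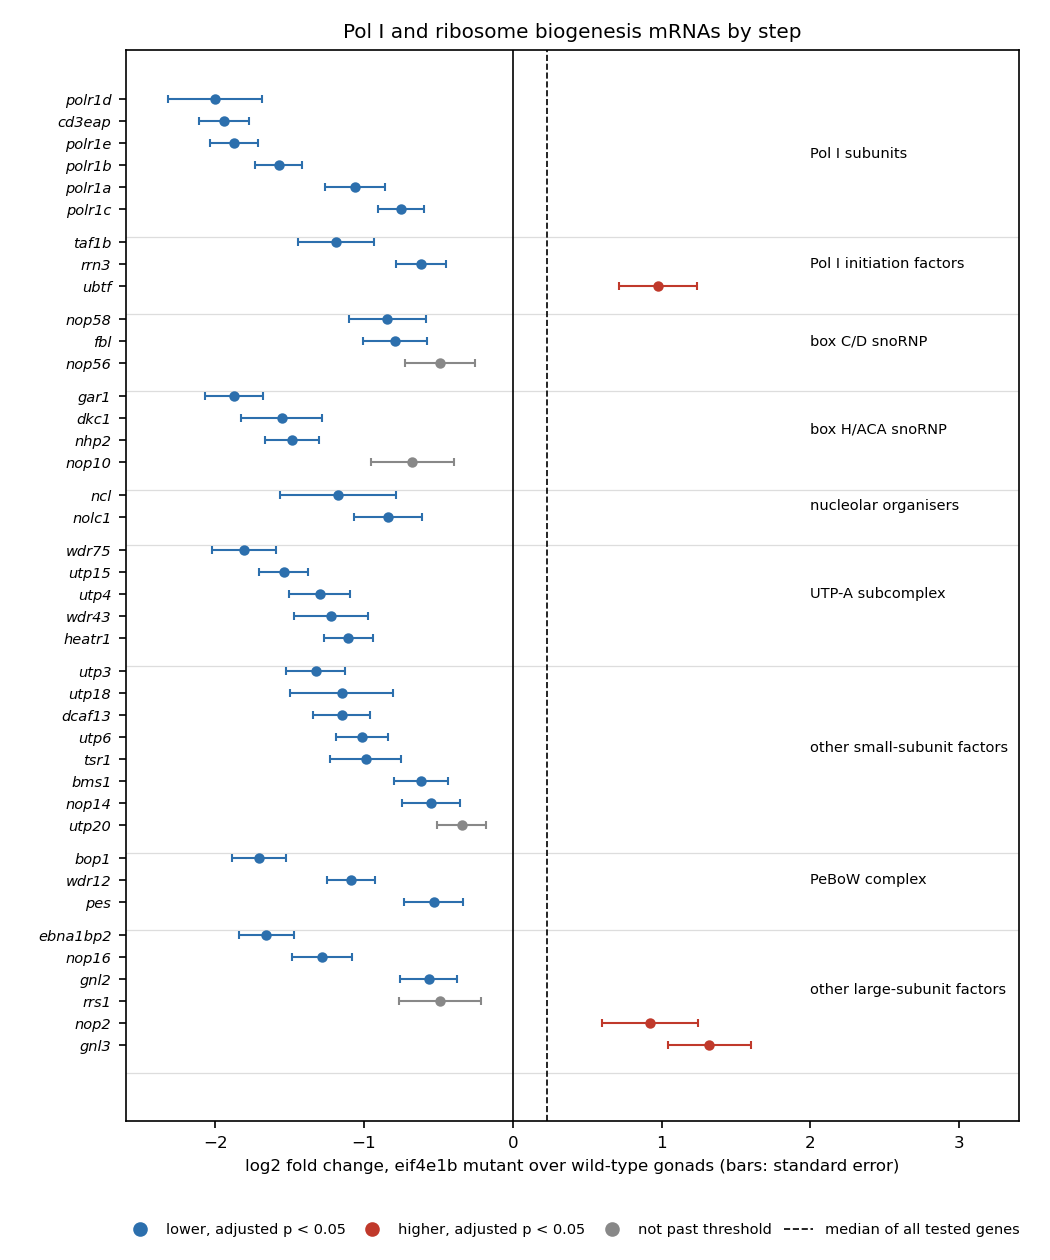
Log2 fold changes (mutant over wild-type gonads, x axis) of the 40 mRNAs, ordered by step down the page. Points are estimates from 3 mutant and 3 wild-type samples, bars are standard errors, and the dashed line is the median of all tested genes at 0.23. Blue points were lower (33 genes), red points were higher (*ubtf*, *nop2* and *gnl3*) and grey points did not pass the threshold (4 genes).

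The summed level of the 40 mRNAs was 5074, 6712 and 5108 CPM in mutant samples and 10761, 10284 and 10823 CPM in wild-type samples. Without any scaling, they took 0.748, 0.525 and 0.647 percent of all counts in mutant libraries and 0.904, 0.948 and 0.936 percent in wild-type libraries. The groups did not overlap in either measure. Mutant replicate 2, the sample with the most liver signal, had the highest scaled level of the 3 mutant samples in 28 of the 40 genes but the lowest unscaled share. The median coefficient of variation of the 40 genes was 12.8% between mutant samples and 7.96% between wild-type samples, and that of all tested genes was 26.6% between mutant samples and 23.7% between wild-type samples. These sets were not matched for level, and low counts raise this coefficient, so the values do not compare the sets directly. Without mutant replicate 2, 35 genes were lower and 2 were higher. In that fit 31.5% of all tested genes were lower, and 7568 of 21164 were higher. Without wild-type replicate 1, the wild-type sample with the most testis signal, 29 were lower and 2 were higher. There 30.6% of all tested genes were lower, and 7818 of 20890 were higher. Only *gnl3* was still higher without mutant replicate 3, wild-type replicate 2 or wild-type replicate 3, with 28, 27 and 23 lower genes in these fits. Of all tested genes, 28.8%, 28.0% and 26.6% were lower in them.

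The number of calls depended on how the libraries were scaled. Of all called genes, 53.9% were higher under TMM scaling, 68.8% under library totals and 71.1% under upper-quartile scaling, and the median log2 fold change of all tested genes moved to 0.65 with library totals and 0.92 with upper-quartile factors. With library totals, 14 of the 40 genes and 18.6% of all tested genes were lower, and 3 of the 40 genes and 41.1% of all tested genes were higher. With upper-quartile factors, 14 of the 40 genes and 19.9% of all tested genes were lower, and 3 of the 40 genes and 49% of all tested genes were higher. The median of the 40 genes minus the median of all tested genes was -1.32 log2 units with TMM factors, -1.30 with library totals and -1.32 with upper-quartile factors. With each of these scalings, 37 of the 40 genes lay below the median of all genes, and *ubtf*, *nop2* and *gnl3* lay above it. A change of scaling shifts all log2 fold changes by nearly the same amount. This distance and this count could therefore hardly change, and they are no separate test of the result.

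**Figure D2:**
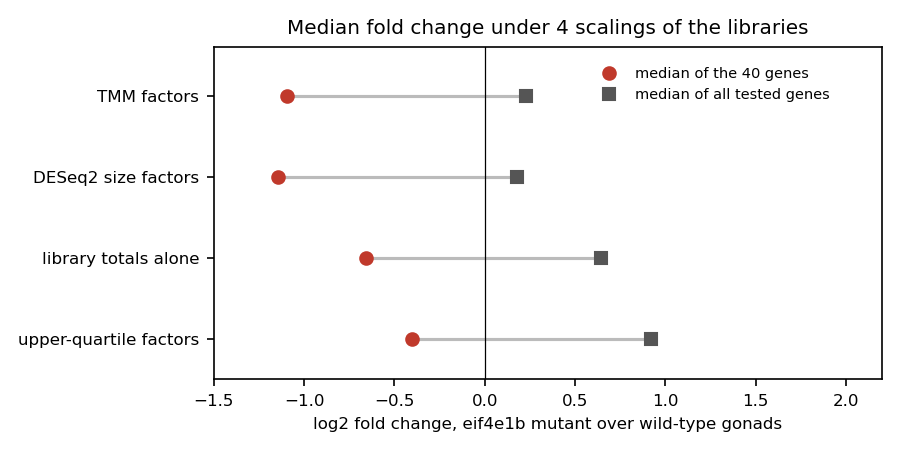
Median log2 fold change (mutant over wild-type gonads, x axis) under 4 scalings of the libraries. Circles are the median of the 40 genes and squares the median of all tested genes. Both medians move together, from -1.10 and 0.23 with TMM factors to -0.40 and 0.92 with upper-quartile factors. A change of scaling shifts all genes by nearly the same amount, so the distance between the medians could hardly change.

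All 6 Pol I subunits measured were lower in mutant gonads (median log2 fold change -1.73), and they summed to 319.9, 367 and 322 CPM in mutant samples against 864, 857 and 912 CPM in wild-type samples. *polr1a* (ENSDARG00000098375), which encodes the largest subunit and part of the active site, had 152, 177 and 163 CPM in mutant samples and 372, 318 and 338 CPM in wild-type samples (log2 fold change -1.06, SE 0.201, adjusted p = 0.00382). *polr1b* (ENSDARG00000077469), which encodes the second-largest subunit and the rest of the active site, had 29.9, 28.7 and 26.1 CPM in mutant samples, against 86.5, 80.2 and 85.7 CPM in wild-type samples (log2 fold change -1.57, SE 0.160, adjusted p = 0.000463). The lowest wild-type sample lay well above the highest mutant sample for both catalytic subunits. The level of *polr1b* varied by only a few CPM within each genotype.

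*polr1e* (ENSDARG00000006434) and *cd3eap* (ENSDARG00000090386, also named *polr1g*) encode the heterodimer that docks on the core enzyme and takes part in initiation and elongation. For *polr1e* the mutant samples had 28.0, 26.5 and 25.7 CPM and the wild-type samples 104, 91.7 and 99.3 CPM (log2 fold change -1.88, SE 0.161, adjusted p = 0.00033). *cd3eap* showed 33.3, 35.5 and 31.2 CPM in mutant samples and 122, 123 and 140.2 CPM in wild-type samples (log2 fold change -1.94, SE 0.169, adjusted p = 0.000336). The heterodimer genes had the smallest p-values of the 40 genes, and their drops differed by less than their standard errors.

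*polr1c* (ENSDARG00000039400) and *polr1d* (ENSDARG00000037570) encode the assembly pair that Pol I shares with RNA polymerase III. *polr1c* had the smallest drop of the subunits, with 45.8, 50.4 and 47.9 CPM in mutant samples and 80.3, 78.6 and 83.9 CPM in wild-type samples (log2 fold change -0.75, SE 0.153, adjusted p = 0.00499). *polr1d* had the largest drop of the 40 genes, with 31.0, 48.7 and 27.7 CPM in mutant samples and 99.6, 166 and 165 CPM in wild-type samples (log2 fold change -2.0, SE 0.316, adjusted p = 0.00194). It also had the largest standard error of the subunits. In TMM-CPM mutant replicate 2 was above the other mutant samples, and wild-type replicate 1 was below the other wild-type samples. *polr1a* and *polr1c* were not called with library totals or upper-quartile factors, whereas the other 4 subunits were called under all 15 alternatives tried.

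**Figure D3:**
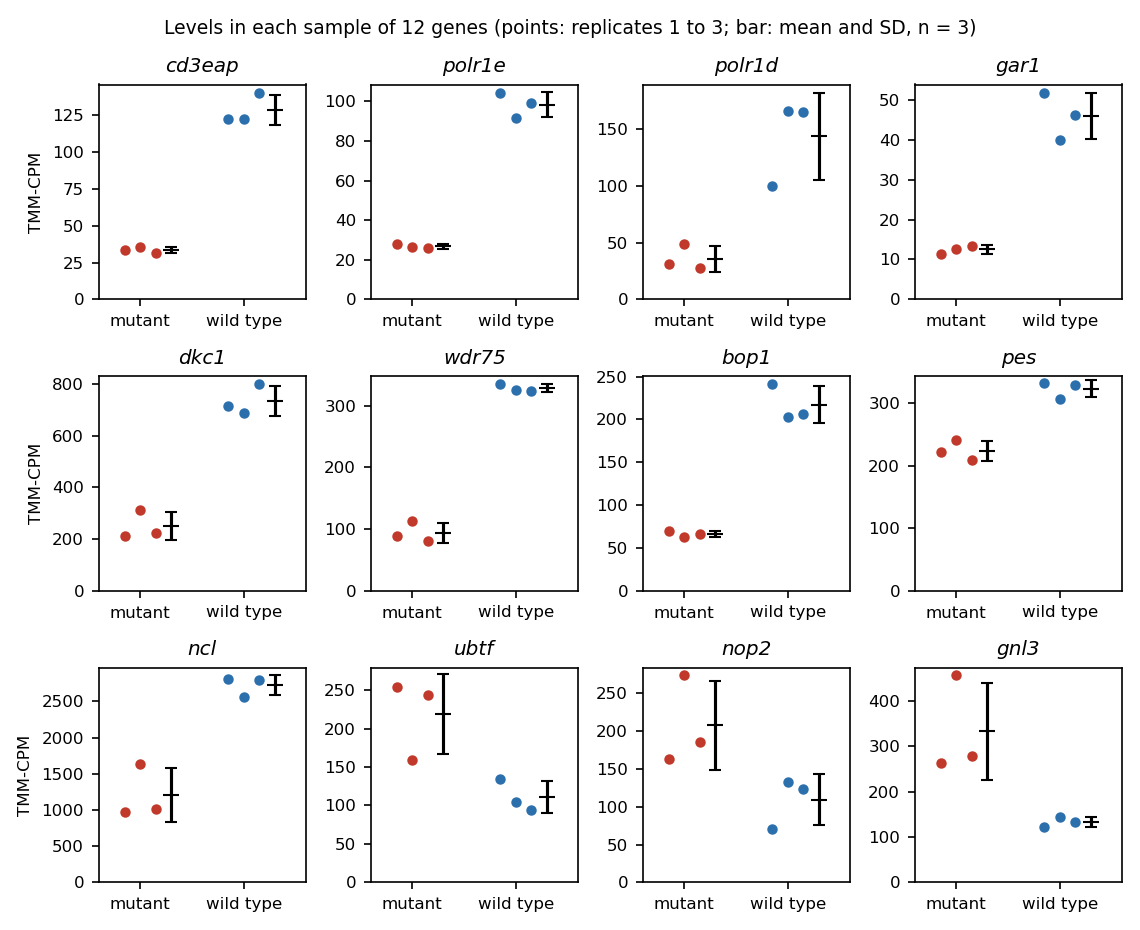
TMM-CPM (y axis, from 0) in each mutant (red, left) and wild-type (blue, right) sample for 12 of the genes, with the mean and SD of 3 samples beside the points. In the first 9 panels every mutant point is below every wild-type point, and for *ubtf*, *nop2* and *gnl3* every mutant point is above.

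Of the 3 factors that bring Pol I to the rRNA genes, 2 were lower and 1 was higher. Among all tested genes 32% were lower and 37.5% higher, so 1 of 3 higher was close to the general share. *taf1b* (ENSDARG00000028937), a subunit of the promoter selectivity factor SL1, had 13.2, 10.2 and 18.3 CPM in mutant samples and 30.4, 31.0 and 33.7 CPM in wild-type samples (log2 fold change -1.19, SE 0.254, adjusted p = 0.00601). *rrn3* (ENSDARG00000102997), which makes the polymerase competent for initiation, had 30.5, 28.5 and 29.1 CPM in mutant samples and 43.8, 41.8 and 49.6 CPM in wild-type samples (log2 fold change -0.62, SE 0.165, adjusted p = 0.0144). Both fell with TMM factors, but both calls were lost with library totals and with upper-quartile factors. With upper-quartile factors *rrn3* had a log2 fold change of 0.08. The call of *rrn3* was also lost with a replicate block and without wild-type replicate 3.

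*ubtf* (ENSDARG00000035066) encodes UBF, an HMG-box protein that coats active rRNA genes and keeps their chromatin open. It rose, with 253, 159 and 243 CPM in mutant samples and 135, 105 and 94.7 CPM in wild-type samples (log2 fold change 0.97, SE 0.261, adjusted p = 0.0144). Mutant replicate 2 was the lowest mutant sample and still lay above all wild-type samples. The call was lost without mutant replicate 3, wild-type replicate 2 or wild-type replicate 3, where the largest adjusted p was 0.0835 and the smallest log2 fold change was 0.76. In relation to *polr1a*, *ubtf* had 1.67, 0.898 and 1.49 counts per *polr1a* count in mutant samples and 0.362, 0.329 and 0.280 in wild-type samples, a ratio chosen after its values were seen and given without a test.

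Of the 7 snoRNP proteins, 5 were lower in mutant gonads. Particles of the box H/ACA class guide the conversion of uridine to pseudouridine in rRNA, and 3 of their 4 genes were lower. Particles of the box C/D class guide the methylation of ribose, and 2 of their 3 genes were lower. The median log2 fold changes of the classes were -1.52 and -0.79, and the difference between them was not tested. *gar1* (ENSDARG00000076526), a core protein of the H/ACA particle, had 11.4, 12.7 and 13.5 CPM in mutant samples and 51.7, 40 and 46.2 CPM in wild-type samples (log2 fold change -1.87, SE 0.194, adjusted p = 0.000489). *nhp2* (ENSDARG00000069422), which binds the guide RNA of the same particle, had 54.2, 44.99 and 41.4 CPM in mutant samples and 130.0, 127 and 137 CPM in wild-type samples (log2 fold change -1.48, SE 0.180, adjusted p = 0.000794). For both genes the highest mutant sample was well below the lowest wild-type sample.

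*dkc1*, which encodes the pseudouridine synthase dyskerin, also fell, with 213, 312 and 226 CPM in mutant samples and 716, 688 and 801 CPM in wild-type samples (log2 fold change -1.55, SE 0.271, adjusted p = 0.00278). *nop10* (ENSDARG00000104227), the smallest protein of the particle, did not pass the threshold, with 52.7, 80.4 and 39.4 CPM in mutant samples and 97.2, 83.9 and 94.4 CPM in wild-type samples (log2 fold change -0.68, SE 0.279, adjusted p = 0.0649). Mutant replicate 2 came close to the wild-type samples for *nop10*, and without it the log2 fold change was -0.97 and passed the threshold. *nop10* was also called lower with DESeq2's Wald test, DESeq2 size factors in edgeR, limma-voom and no filter beyond 1 count. Under 10 of 15 alternatives it stayed short of the threshold, and its log2 fold change ranged up to 0.018.

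The box C/D genes encode the methyltransferase fibrillarin (*fbl*) and the paired scaffold proteins of *nop56* and *nop58*. *fbl* (ENSDARG00000053912) had 158, 200.3 and 144 CPM in mutant samples and 299, 281 and 289 CPM in wild-type samples (log2 fold change -0.79, SE 0.214, adjusted p = 0.0149). *nop58* (ENSDARG00000104353) had 288, 378 and 298 CPM in mutant samples and 476, 649 and 604 CPM in wild-type samples (log2 fold change -0.84, SE 0.261, adjusted p = 0.0245). Both were lower, with no overlap between the genotypes in TMM-CPM. The call of *fbl* was kept under 11 of 15 alternatives and that of *nop58* under 9 of 15. Both calls were lost with library totals and with upper-quartile factors, and the log2 fold changes ranged up to -0.10 and -0.15.

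The level of *nop56* (ENSDARG00000012820) was 253, 349.7 and 272 CPM in mutant samples and 435, 395 and 397 CPM in wild-type samples, and it did not pass the threshold (log2 fold change -0.49, SE 0.235, adjusted p = 0.102) although the samples did not overlap. The log2 fold change of *nop56* was 0.20 with upper-quartile factors. Without mutant replicate 2 it was -0.62 and passed the threshold, and *nop56* was also called lower with DESeq2's Wald test and limma-voom.

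Both nucleolar organisers fell. *nolc1* (ENSDARG00000024561), which encodes a phosphoprotein that binds snoRNPs and Pol I, had 226, 277 and 209.8 CPM in mutant samples and 459.8, 393 and 421 CPM in wild-type samples (log2 fold change -0.84, SE 0.228, adjusted p = 0.0151). *ncl* (ENSDARG00000002710), which encodes nucleolin, an abundant RNA-binding protein of the nucleolus, had 973, 1640.1 and 1010.1 CPM in mutant samples and 2815, 2565 and 2797 CPM in wild-type samples (log2 fold change -1.17, SE 0.390, adjusted p = 0.0316). Mutant replicate 2 was the highest mutant sample for both genes in TMM-CPM, an order that depends on the scaling. The call of *nolc1* was kept under 11 of 15 alternatives, and was lost with library totals, upper-quartile factors, a replicate block and without wild-type replicate 3. The call of *ncl* was lost under 7 of 15 alternatives, among them leaving out mutant replicate 3 or any one wild-type sample, with log2 fold changes of -1.44 to -1.07 when 1 sample was left out.

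All 5 genes examined of UTP-A were lower, with a median log2 fold change of -1.30. UTP-A is the subcomplex of the small-subunit processome that binds the start of the rRNA precursor. It is needed for Pol I transcription in yeast and human cells. *wdr75* (ENSDARG00000040730) had 88.8, 113 and 80.2 CPM in mutant samples and 335, 326 and 324 CPM in wild-type samples (log2 fold change -1.81, SE 0.217, adjusted p = 0.00077). *utp15* (ENSDARG00000002720) had 35.5, 38.2 and 31.9 CPM in mutant samples and 99.2, 102 and 106 CPM in wild-type samples (log2 fold change -1.54, SE 0.164, adjusted p = 0.000527). *wdr43* (ENSDARG00000077264) had 174, 259 and 187 CPM in mutant samples and 503, 474 and 470.2 CPM in wild-type samples (log2 fold change -1.22, SE 0.249, adjusted p = 0.00501). The wild-type samples lay close together for all 3 genes, and mutant replicate 2 was the highest mutant sample in TMM-CPM, an order that depends on the scaling. The remaining genes examined of the subcomplex, *utp4* and *heatr1*, had log2 fold changes of -1.30 and -1.10 and did not overlap between the genotypes.

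Of the 8 other small-subunit factors, 7 were lower, with a median log2 fold change of -1.0. *utp3* (ENSDARG00000056720), an early processome protein, had 74.9, 92.9 and 73.5 CPM in mutant samples and 176, 208 and 220.2 CPM in wild-type samples (log2 fold change -1.33, SE 0.199, adjusted p = 0.00165). *dcaf13* (ENSDARG00000002267), the counterpart of yeast Sof1, had 58.0, 56.5 and 58.4 CPM in mutant samples and 154, 109.8 and 120.2 CPM in wild-type samples (log2 fold change -1.15, SE 0.192, adjusted p = 0.00236). Neither gene overlapped between the genotypes, and the mutant samples of *dcaf13* lay within a few CPM of each other.

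*utp20* (ENSDARG00000099280), a large scaffold protein of late processome assembly, did not pass the threshold, with 102, 94.8 and 101 CPM in mutant samples and 119, 121 and 139 CPM in wild-type samples (log2 fold change -0.34, SE 0.165, adjusted p = 0.102). It stayed short of the threshold under all 15 alternatives, and its log2 fold change was 0.35 with upper-quartile factors. The other 5 genes of this group, *utp6*, *utp18*, *nop14*, *tsr1* and the GTPase gene *bms1*, were lower, with log2 fold changes of -1.15 to -0.55. Of these, *nop14* and *bms1* turned positive with upper-quartile factors, and *utp18* had the fewest counts of the 40 genes.

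The PeBoW complex, named after Pes1, Bop1 and WDR12, is needed to mature the rRNA of the large subunit, and all 3 of its genes were lower. *bop1* (ENSDARG00000063627) had 70.4, 63.0 and 66.6 CPM in mutant samples and 242, 203 and 207 CPM in wild-type samples (log2 fold change -1.70, SE 0.181, adjusted p = 0.000526). *wdr12* (ENSDARG00000003287) had 59.14, 59.3 and 57.0 CPM in mutant samples and 136, 115 and 122 CPM in wild-type samples (log2 fold change -1.09, SE 0.163, adjusted p = 0.00163). *pes* (ENSDARG00000018902, listed as PES1) had 222, 241 and 209 CPM in mutant samples and 333, 308 and 329 CPM in wild-type samples (log2 fold change -0.53, SE 0.198, adjusted p = 0.0471). The genotypes did not overlap for any of the 3 genes, but the drop of *pes* was the smallest, was lost under 10 of 15 alternatives and became a log2 fold change of 0.16 with upper-quartile factors.

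Of the other 6 large-subunit factors, 3 were lower, 2 were higher and 1 was not past the threshold. Of all tested genes, 32% were lower and 37.5% higher, so 2 of 6 higher was close to the general share. *ebna1bp2* (ENSDARG00000054980), the counterpart of yeast Ebp2, had 66.2, 74.6 and 70.2 CPM in mutant samples and 248, 205 and 212 CPM in wild-type samples (log2 fold change -1.66, SE 0.184, adjusted p = 0.0006). *nop16* (ENSDARG00000044402) had 73.2, 74.2 and 63.6 CPM in mutant samples and 202, 143 and 168 CPM in wild-type samples (log2 fold change -1.28, SE 0.202, adjusted p = 0.00193). Both fell without overlap, and *gnl2*, a GTPase of the same pathway, fell by 0.57 on the log2 scale. The call of *gnl2* was kept under only 7 of 15 alternatives, and was lost without mutant replicate 1 or any one wild-type sample. With upper-quartile factors the log2 fold change of *gnl2* was 0.12.

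*gnl3* (ENSDARG00000006219) encodes nucleostemin, a nucleolar GTPase known from stem cells and proliferating cells. It rose, with 263, 456 and 278 CPM in mutant samples and 123, 144 and 133 CPM in wild-type samples (log2 fold change 1.32, SE 0.279, adjusted p = 0.00569). *nop2* (ENSDARG00000043304), which encodes a methyltransferase for cytosine in the rRNA of the large subunit, had 162, 274 and 186 CPM in mutant samples and 71.2, 133 and 124 CPM in wild-type samples (log2 fold change 0.92, SE 0.323, adjusted p = 0.0375). In both genes every mutant sample was above every wild-type sample, and mutant replicate 2 was the highest in TMM-CPM. Its TMM factor was 0.788, against 1.48 and 1.27 for mutant replicates 1 and 3, so this order depends on the scaling. The rise of *gnl3* was called under all 15 alternatives, with a log2 fold change of 1.04 without mutant replicate 2. That of *nop2* was lost under 8 of 15, among them DESeq2's Wald test and leaving out mutant replicate 2, where the log2 fold change was 0.67.

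*rrs1* (ENSDARG00000003941), which helps to bring the 5S particle into the large subunit, was the only gene with overlapping samples, at 82.9, 142 and 76.2 CPM in mutant samples and 127, 152 and 143 CPM in wild-type samples (log2 fold change -0.49, SE 0.276, adjusted p = 0.15). Mutant replicate 2 lay within the wild-type range, and without it the log2 fold change was -0.81 and passed the threshold. Under the other 14 of 15 alternatives *rrs1* stayed short of the threshold, and its log2 fold change ranged up to 0.20. Together, these 6 genes, *gnl3* and *nop2* included, took 16.1, 18.2 and 16.8 percent of the counts of the 40 genes in mutant samples and 9.85, 10.05 and 9.73 percent in wild-type samples.

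A ratio of counts of a gene pair in the same library does not depend on how libraries are scaled, so 10 pairs of partners in a complex or step were compared between the genotypes as log2 ratios. With 3 samples against 3, the exact two-sided permutation test cannot give a p below 0.1, so no pair could pass the threshold. In 7 of the 10 pairs the genotypes did not overlap, with an exact p of 0.1 and an adjusted p of 0.143. The ratio did not overlap in 69% of all pairs of the 18944 tested genes with counts in every library and in 64.4% of the 780 pairs of the 40 genes, so 7 of 10 was close to the general share. Levels of the partners themselves are not compared by these ratios, since they depend on gene length.

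The farthest apart of the 10 pairs were *polr1c* with *polr1d*, *bop1* with *pes* and *cd3eap* with *polr1a*. The log2 ratio of *polr1c* to *polr1d* was 0.56, 0.05 and 0.79 in mutant samples and -0.31, -1.08 and -0.97 in wild-type samples, a difference of 1.25. The log2 ratio of *bop1* to *pes* was -1.66, -1.93 and -1.65 in mutant samples and -0.46, -0.60 and -0.67 in wild-type samples, a difference of -1.17. That of *cd3eap* to *polr1a* was -2.19, -2.32 and -2.39 in mutant samples and -1.61, -1.37 and -1.27 in wild-type samples, a difference of -0.88. In each of these pairs every mutant sample lay on the same side of every wild-type sample. The differences for *nop10* to *nhp2*, *wdr12* to *bop1*, *wdr43* to *wdr75* and *polr1a* to *polr1b* were 0.76, 0.62, 0.58 and 0.52. The difference for *nop10* to *nhp2* was 0.46 without mutant replicate 2.

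The samples overlapped in the other 3 pairs, among them the heterodimer. The log2 ratio of *cd3eap* to *polr1e* was 0.25, 0.42 and 0.28 in mutant samples and 0.23, 0.42 and 0.50 in wild-type samples, a difference of -0.07 (exact permutation p = 0.7). The differences for *nop56* to *nop58* and *gar1* to *dkc1* were 0.34 and -0.30, with overlapping samples (exact permutation p = 0.3 for each). Leaving out 1 sample at a time turned none of the 10 differences round. Among genes that moved in opposite directions, *gnl3* had 1.54, 2.31 and 1.51 counts per *gnl2* count in mutant samples and 0.424, 0.562 and 0.487 in wild-type samples, and *nop2* had 2.22, 3.69 and 2.92 counts per *nop16* count in mutant samples and 0.352, 0.932 and 0.735 in wild-type samples. These last ratios were chosen after their values were seen and carry no test.

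**Figure D4:**
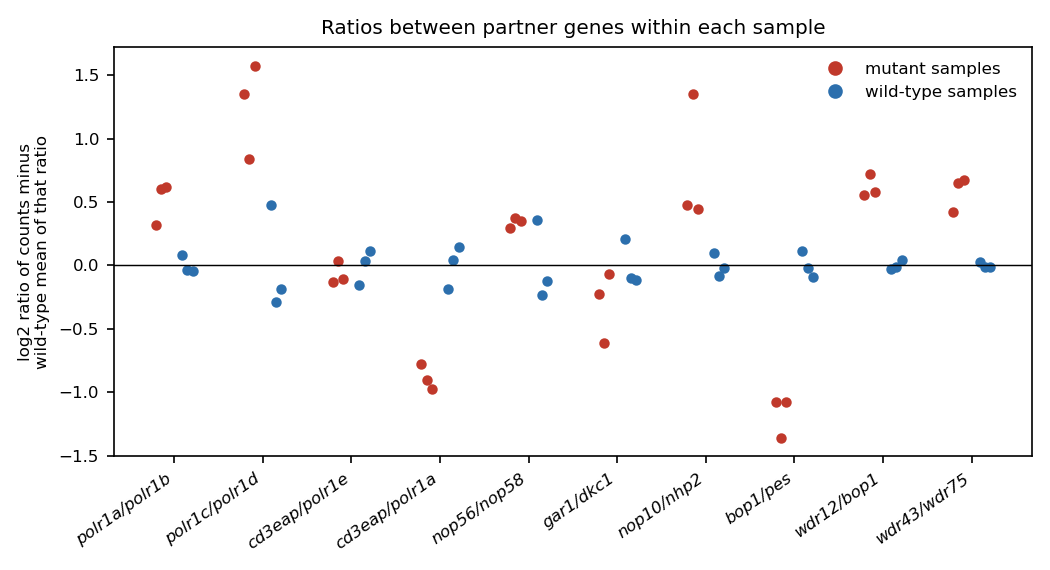
Log2 ratio of counts of 10 gene pairs in each mutant (red, left) and wild-type (blue, right) sample, minus the wild-type mean of that ratio (y axis). In 7 pairs the red and blue points do not overlap (69% among all pairs of tested genes), and *polr1c* to *polr1d* (difference 1.25) and *bop1* to *pes* (difference -1.17) are the farthest apart.

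Most mRNAs of a wider list of 118 other genes of ribosome biogenesis were also lower in mutant gonads. Of these, 89 were lower, 2 were higher and 27 did not pass the threshold, with a median log2 fold change of -1.13, where 32% of all tested genes were lower and 37.5% higher. Mutant samples were all below wild-type samples in 94 genes (35.4% of all tested genes), all above in 3 (39.8% of all tested genes), and overlapped in 21. By step, 39 of 46 small-subunit genes, 34 of 50 large-subunit genes, 9 of 10 genes for the assembly of snoRNPs, 5 of 8 further Pol I genes and 2 of 4 nucleolar genes were lower. The number of lower genes was 41 with library totals (18.6% of all tested genes) and 47 with upper-quartile factors (19.9% of all tested genes), and 1 gene was higher without mutant replicate 3 or without any one of the wild-type samples.

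The 3 largest drops among the 118 matched genes of the wider list were in *znhit6*, *nufip1* and *senp3b*. *znhit6* and *nufip1* encode assembly factors of box C/D snoRNPs, and *senp3b* is related to a human SUMO protease of the nucleolus. *znhit6* had 29.5, 18.6 and 26.5 CPM in mutant samples and 234, 215 and 227 CPM in wild-type samples (log2 fold change -3.18, SE 0.237, adjusted p = 0.000299). *nufip1* had 58.4, 41.6 and 44.4 CPM in mutant samples and 335, 337 and 354 CPM in wild-type samples (log2 fold change -2.83, SE 0.225, adjusted p = 0.000308). *senp3b* had 29.8, 22.3 and 30.8 CPM in mutant samples and 199, 184 and 191 CPM in wild-type samples (log2 fold change -2.79, SE 0.203, adjusted p = 0.000296). These drops were all larger than that of any of the 40 genes.

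The 2 higher genes of the wider list were *nsa2* and *mdn1*. *nsa2*, a factor of the large-subunit precursor, had 729.9, 1111 and 797 CPM in mutant samples and 367, 271 and 304 CPM in wild-type samples (log2 fold change 1.49, SE 0.299, adjusted p = 0.00474). *mdn1*, which encodes a giant ATPase that strips factors from this precursor, had 197, 229 and 190.4 CPM in mutant samples and 128, 121 and 149 CPM in wild-type samples (log2 fold change 0.63, SE 0.193, adjusted p = 0.0239). Mutant replicate 2 was again the highest sample for both in TMM-CPM. *nsa2* was called under all 15 alternatives, and the call of *mdn1* was lost under 7 of 15, among them DESeq2's Wald test and leaving out mutant replicate 3 or any one wild-type sample, with log2 fold changes down to 0.47.

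The 8 further Pol I genes are named here after their values were seen. The lower ones were *polr1f*, *polr1h*, the SL1 gene *taf1a*, and *polr2h* and *polr2k*, which all nuclear polymerases share, with log2 fold changes of -1.84 (*polr1h*) to -0.89 (*polr2h*). The shared subunit genes *polr2f* and *polr2l* had log2 fold changes of -0.26 and -0.19 and did not pass the threshold. The same held for *ubtfl*, a relative of *ubtf*, whose levels were 76.5, 49.0 and 79.8 CPM in mutant samples and 55.2, 59.17 and 54.4 CPM in wild-type samples (log2 fold change 0.28, SE 0.225, adjusted p = 0.292). The names *polr2ea* and *polr2eb*, sought for this step, matched no gene and are not among the 118. A gene listed as POLR2E (ENSDARG00000074274) had a log2 fold change of -3.25 (SE 0.644, adjusted p = 0.0045), a larger drop than that of *znhit6*. Its wild-type replicate 1 lay far above the other wild-type samples. Another gene listed as POLR2E (ENSDARG00000026183) had a log2 fold change of -0.21 and did not pass the threshold.

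**Figure D5:**
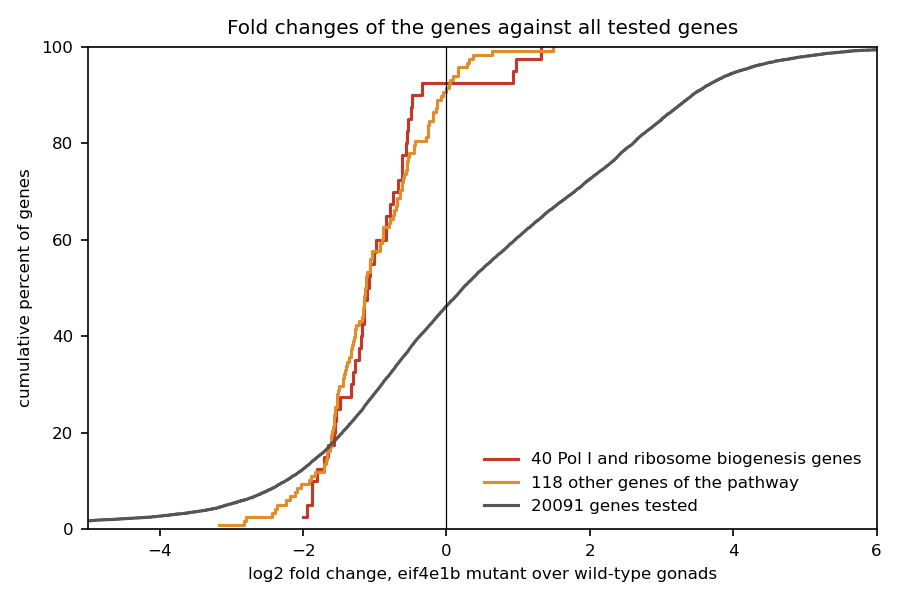
Cumulative percent of genes (y axis) by log2 fold change (mutant over wild-type gonads, x axis) for the 40 genes (red), the 118 other genes of ribosome biogenesis (orange) and all 20091 tested genes (grey, drawn as far as the axis reaches). The red and orange curves cross 50 percent at -1.10 and -1.13, and the grey curve at 0.23 with much longer tails on both sides.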

How the data were processed

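RNA from gonads of juvenile *eif4e1b* mutant and wild-type zebrafish (3 samples each) was sequenced after depletion of rRNA from stranded libraries. The authors deposited raw read counts per gene and sample for 32520 Ensembl genes of GRCz11. The submitters' processing notes name Trim Galore 0.5.0, Bowtie2 2.3.4.1, featureCounts, Subread 1.6.2, DESeq2 1.18.1 and R 3.4.1. The annotation release, the strand setting and the counting of reads with several matches are not given in the sources used here, so counts of overlapping or antisense genes and of close paralogs may be mixed. Coordinates and sequences are not printed, since no genome of this build was used here.

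Genes were matched by symbol or synonym to tables of gene names (40 of 40, and 118 of 131 other names). Counts as deposited were fitted in edgeR 4.0.16 (R 4.3.3) and tested between genotypes by its two-sided quasi-likelihood F-test, with TMM factors, genotype as the only term and the default filter (minimum count 10, minimum total 15), which kept 20091 genes. Adjusted p-values are Benjamini-Hochberg values over all tested genes, with a threshold of 0.05. Standard errors were derived from the F statistic. The test was checked on simulated counts with known changes in 200 genes, evenly up and down. Far more genes changed in the real data, so this check does not cover the dependence on scaling. Replicates of a genotype differed by more than sampling noise (chi-square per degree of freedom 10.4 to 149), so each library counted as 1 sample. Total counts per library limit the precision of low genes.

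Alternatives were DESeq2 1.42.0, limma 3.58.1 (voom), other scalings and filters, TMM factors without pancreas, liver and other marker genes, a replicate block and leaving out each sample. Values in every sample are given for the 2 genes of each step with the smallest p, genes against the majority of their step, genes not past the threshold, both genes of partner pairs whose ratios do not overlap, and the 3 largest changes in each direction in the wider list, where only 2 genes were higher. *dkc1* was added after its values were seen. The genes and lists were chosen with earlier results of these data known. Figures used python 3.11.15, pandas 2.3.3 and matplotlib 3.10.9.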

Additional observations from a re-analysis of the deposited data

How the results depend on the processing

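Of the 33 lower genes, 13 kept their call under all 15 alternatives (*bop1*, *cd3eap*, *dkc1*, *ebna1bp2*, *gar1*, *nhp2*, *polr1b*, *polr1d*, *polr1e*, *utp15*, *utp3*, *utp4* and *wdr75*), as did *gnl3* of the 3 higher genes. Library totals gave 14 lower genes of the 40, 41 of the 118 other genes and 3740 of all genes, and upper-quartile factors gave 14, 47 and 4001. With upper-quartile factors the log2 fold changes of *rrn3*, *nop14*, *bms1*, *pes* and *gnl2* became 0.076, 0.14, 0.075, 0.16 and 0.12, relative to a median of 0.92 over all tested genes. With the same factors 9 of the 118 were higher, against 49% of all tested genes. The number of higher genes was 1 of the 40 and 1 of the 118 with an added minimum of 1 log2 unit, and 1 of the 118 with DESeq2's Wald test, with no filter beyond 1 count and with the replicate block. With no filter beyond 1 count, 8485 of all 29722 tested genes were higher. Leaving out 1 sample gave 23 to 35 lower and 1 to 3 higher genes of the 40, and 1 to 2 higher genes of the 118. In these fits 26.6% to 31.5% of all tested genes were lower, and 6140 to 7818 genes were higher out of 20890 to 21357 tested. TMM factors without marker genes gave 33 lower and 3 higher genes of the 40, with 6429 lower and 7532 higher of all 20091 tested genes. DESeq2's Wald test gave 35 lower and 2 higher genes of the 40, with 23.3% of its 29722 genes lower and 8323 of them higher. A replicate block gave 24 lower and 3 higher genes of the 40, with 29.3% of all 20091 tested genes lower and 6625 of them higher. The labels do not say whether samples with the same number share more than that number. Their deviations from the group means correlated at 0.12, -0.20 and -0.05 over 20091 genes. Not every sample correlated best with its own number. With 3 samples per genotype, whose deviations sum to 0, these correlations cannot decide the point. Depth limits *utp18* most, with 28 counts in its lowest library.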

Other observations

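Genes that encode the ribosomal proteins moved against those that encode the machinery for building ribosomes. Of 80 tested genes named as cytosolic ribosomal proteins, 61 were higher in mutant gonads, where 37.5% of all tested genes were higher. In edgeR's quasi-likelihood test 1 was lower (*RPL7L1*, log2 fold change -1.13) and 18 did not pass the threshold. The list was taken by name, and whether *RPL7L1*, named as like RPL7, is a ribosomal protein was not checked. With library totals 70 were higher (41.1% of all tested genes), and with upper-quartile factors 75 were higher (49% of all tested genes). Their median log2 fold change was 1.12 with TMM factors, 1.47 with library totals and 1.81 with upper-quartile factors, and that of all tested genes was 0.23, 0.65 and 0.92. Their summed level was 31456 to 54349 CPM in mutant samples and 15536 to 24191 CPM in wild-type samples. Near-identical copies of these genes may share reads, and the list was chosen after the values of the 40 genes were seen.

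RNA polymerase III makes 5S rRNA and tRNAs. Of its 11 subunit genes tested, 7 were lower and 2 were higher (32% and 37.5% of all tested genes). With library totals 4 were lower and 2 were higher (18.6% and 41.1% of all tested genes). With upper-quartile factors 6 were lower and 4 were higher (19.9% and 49% of all tested genes). Of 13 genes of RNA polymerase II subunits, some of them shared with the other polymerases, 8 were lower and 1 was higher, with a median log2 fold change of -0.81, against -1.24 for RNA polymerase III. With library totals 1 of these 13 was lower (18.6% of all tested genes), and with upper-quartile factors 2 were (19.9% of all tested genes). Paralogous subunit genes of RNA polymerase III moved in opposite directions. *polr3g*, a form known from stem cells and early embryos in mammals, had 1.59, 0.465 and 0.267 CPM in mutant samples and 50.2, 37.3 and 46.2 CPM in wild-type samples (log2 fold change -5.78, SE 0.573, adjusted p = 0.000433). Its raw counts were 13, 3 and 2 in mutant samples and 553, 405 and 534 in wild-type samples. *polr3gla*, related to the general mammalian form, had 17.3, 41.9 and 20.5 CPM in mutant samples and 3.09, 0.645 and 1.56 CPM in wild-type samples (log2 fold change 3.90, SE 0.632, adjusted p = 0.00215). Its second copy *polr3glb* had 34.0, 16.6 and 42.6 CPM in mutant samples and 7.08, 1.84 and 1.99 CPM in wild-type samples (log2 fold change 3.09, SE 0.641, adjusted p = 0.00532). Raw counts in wild-type samples were 34, 7 and 18 for *polr3gla* and 78, 20 and 23 for *polr3glb*, with replicate 1 standing apart in both. The samples did not overlap for any of these 3 genes. Every mutant sample was below every wild-type sample in 35.4% of all tested genes and above in 39.8%.

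The *myc* family, transcription factors known in mammals to activate genes of ribosome biogenesis, was also divided. *mycla* had 42.2, 20.5 and 32.0 CPM in mutant samples and 262, 460.1 and 409 CPM in wild-type samples (log2 fold change -3.58, SE 0.378, adjusted p = 0.000517). A gene listed as MYCN had 26.1, 27.5 and 22.7 CPM in mutant samples and 7.17, 4.05 and 4.41 CPM in wild-type samples (log2 fold change 2.28, SE 0.292, adjusted p = 0.000946). The largest rise was in a gene listed as MYC (ENSDARG00000045695), with 32.0, 56.2 and 35.2 CPM in mutant samples and 5.27, 4.24 and 3.29 CPM in wild-type samples (log2 fold change 3.26, SE 0.325, adjusted p = 0.00044). A further gene listed as MYC (ENSDARG00000007241) had a log2 fold change of -0.94 and did not pass the threshold (adjusted p = 0.0537), but was called lower under 7 of 15 alternatives. Of the 5 family members tested, 1 was lower and 3 were higher (32% and 37.5% of all tested genes). These genes were likewise chosen after the values of the 40 genes were seen.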
